A study of Mus musculus with 28 samples.

Results

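The genes described here are 10 components of the Notch pathway, chosen by symbol: the receptors Notch1, Notch2, Notch3 and Notch4, the ligands Jag1 and Dll1, and the target genes Hey1, Hey2, Heyl and Hes1. They are 10 of the 19938 genes that the arrays could name, and each had 1 probe set. Of these, 9 were among the 12211 genes tested, because Dll1 stayed below the median of all probe sets on every array. The study asked which combination of cardiac transcription factors best turns mouse embryonic fibroblasts (MEFs) into induced cardiomyocyte-like cells.

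RNA was measured on 28 single-channel arrays from 7 groups of cultures, which the labels describe as independent biological replicates. DMNT cells (4 arrays) received MYOCD, MEF2C, NKX2.5 and TBX5. DMT cells (4 arrays) received MYOCD, MEF2C and TBX5. HNGMT cells (3 arrays) received Hand2, NKX2.5, GATA4, MEF2C and TBX5. HGMT cells (3 arrays) received Hand2, GATA4, MEF2C and TBX5. NGMT cells (6 arrays) received NKX2.5, GATA4, MEF2C and TBX5, and GMT cells (5 arrays) received GATA4, MEF2C and TBX5. By title and protocol, the 0F cells (3 arrays) were MEFs without virus, although their source name reads like that of the other groups. All 6 factor groups also carried the doxycycline-dependent activator rtTA and a reporter in which a troponin T promoter drives a calcium indicator and zeocin resistance. They were kept in 2 μg/mL doxycycline in a different medium, and were selected with 300 μg/mL zeocin for 7 days before collection on day 21. Cells that do not switch on the troponin T promoter are thus depleted from the factor groups but not from 0F, and transduction, medium, doxycycline, selection and factors cannot be told apart in any comparison with 0F.

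Notch receptors are single-pass proteins that are activated by ligands on neighbouring cells. Ligand binding exposes the receptor to ADAM proteases and then to gamma-secretase, which frees an intracellular domain. That domain enters the nucleus, binds the DNA-binding protein RBPJ together with a Mastermind coactivator, and switches on genes of the HES and HEY families, which encode repressors. In the developing heart, Jag1 and Notch1 act in the endocardium and the outflow tract, Hey2 marks the compact ventricular myocardium and Hey1 the atria, and Notch3 is a receptor of vascular mural cells.

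These promoters are shown because Jag1, a ligand, and Hey2, a target, had the largest differences from 0F among the 10 genes. RefSeq windows on GRCm38.p6 (250 bases before to 50 after the start) were at hand for 7 of the 10 genes. The Hey2 window lies at chr10:30842734-30843033 and the Jag1 window at chr2:137116471-137116770, both on the minus strand. Capitals mark TGGGAA, the core of RBPJ binding sites, found on either strand, so that TTCCCA is the same core read on the opposite strand.
Hey2: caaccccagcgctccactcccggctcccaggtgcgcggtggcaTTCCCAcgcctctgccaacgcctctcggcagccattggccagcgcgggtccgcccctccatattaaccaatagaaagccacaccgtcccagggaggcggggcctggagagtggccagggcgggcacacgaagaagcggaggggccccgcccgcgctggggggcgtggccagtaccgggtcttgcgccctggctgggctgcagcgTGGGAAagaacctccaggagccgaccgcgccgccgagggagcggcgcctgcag
Jag1: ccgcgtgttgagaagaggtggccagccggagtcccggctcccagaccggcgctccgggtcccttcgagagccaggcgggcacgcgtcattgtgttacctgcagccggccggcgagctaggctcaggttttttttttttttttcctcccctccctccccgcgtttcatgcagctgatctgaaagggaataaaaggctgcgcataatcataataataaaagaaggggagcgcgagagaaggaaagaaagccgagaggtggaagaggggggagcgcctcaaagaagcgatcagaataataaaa
In the Hey2 window the core stood at -207 on the opposite strand and at -3 on the gene's own strand, counted from the start site to the first base. The Jag1 window held no TGGGAA, which says only that these letters are not in this window. Across 32851 RefSeq promoter windows of 300 bases, 25.6% held TGGGAA on either strand. None of the windows of Notch1, Notch2, Notch3, Notch4 and Dll1 held it.

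Arrays fell into 3 sets by the distribution of their values, and comparisons were made inside a set wherever both groups were there. Set 1 held 3 arrays each of NGMT and 0F and 2 of GMT. Set 2 held 3 arrays each of DMT, HNGMT, HGMT, NGMT and GMT, and set 3 held 4 of DMNT and 1 of DMT. HNGMT replicate 1 stood apart, with an SD of its differences from its 2 replicates of 0.379 to 0.408 log2, against 0.0774 to 0.216 in the other 26 replicate pairs. In set 3, 18.0 to 28.8% of probe sets had identical values in a pair of arrays, against at most 4.89% in replicate pairs of sets 1 and 2 without HNGMT replicate 1, so the small spread there is not a measure of biological variation. All 10 fibroblast markers were above the array median on every array, whereas on 0F arrays 4 of 13 cardiomyocyte markers were.

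Signals below are log2 values as deposited, differences are log2 of the first group minus the second, and ± is the SE unless marked SD. A gene was called where limma's adjusted p, over all 12211 genes of that comparison, was under 0.05. The spread behind each SE and adjusted p was shared by all arrays of the fit, those of set 3 included. For signals below the array median, the median within-group SD was 0.038 in set 3, against 0.061 in set 1 and 0.078 in set 2. Among the highest signals it was 0.034 in set 3, 0.060 in set 1 and 0.095 in set 2. The set 3 arrays thus pull the shared spread down, and SEs for set 2 may be too small. Set 1 lay between the other sets, so its SEs may be too small or too large. HNGMT replicate 1 pulled the other way for Notch1. The SE of Notch1 in HGMT against GMT was 0.11 with that array and 0.05 without it. Signals of different genes are not compared, since probes differ in brightness.

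Levels separated the 10 genes plainly. Notch1, Notch2, Notch3, Jag1 and Hes1 lay above the array median on all 28 arrays. Notch4 did so on 18 arrays, Heyl on 9, Hey1 on 8 and Hey2 on 7, so the sizes of their differences are inexact where a group lay near background. Hey1 lay above the median only on DMT and DMNT arrays, and Hey2 only on set 3 arrays and 1 array each of HGMT and HNGMT. Both passed the filter on low values only through those arrays. Dll1, a ligand of the Delta type, lay above the median on 0 arrays. Its signals were 6.52 and 6.39 in GMT and 6.36, 6.26 and 6.30 in NGMT, against 6.16, 6.12 and 6.29 in 0F. In a fit without the filter on low values, over 19938 genes, Dll1 was 0.26 ± 0.08 higher in GMT than in 0F (adjusted p = 0.00699), with both groups below the array median. The same fit gave 0.12 ± 0.07 for NGMT against 0F (adjusted p = 0.193). Linked across array sets, Dll1 was 0.30 ± 0.09 higher in HGMT than in 0F (adjusted p = 0.00636) and 0.22 ± 0.09 higher in HNGMT (adjusted p = 0.0477), and it was not called in DMT or DMNT.

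**Figure D1:**
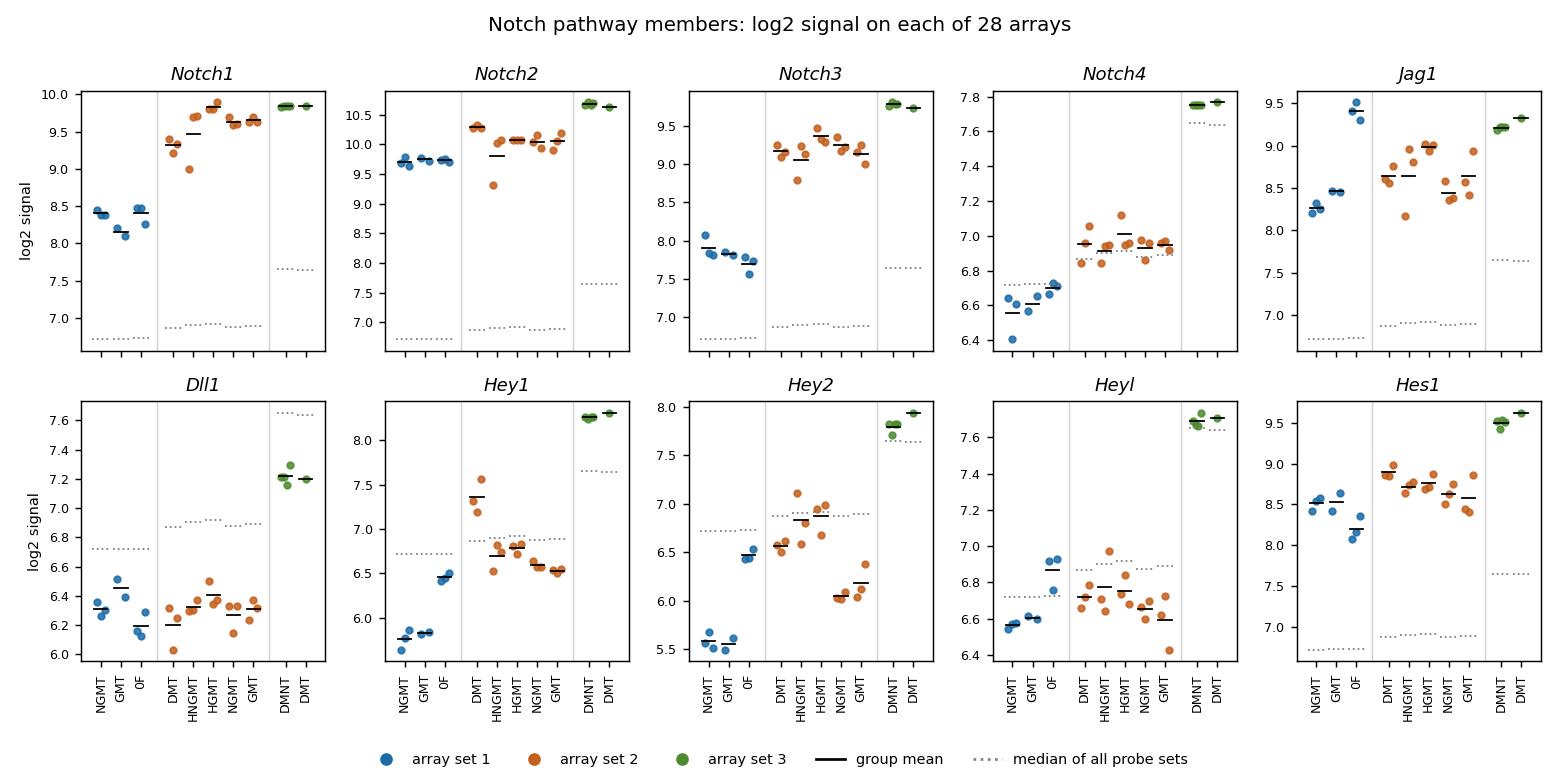
Log2 signal of each of the 10 Notch genes (panels) on each of 28 arrays (points), by group along the horizontal axis and coloured by array set, with group means as black lines and the median of all probe sets as dotted lines. In set 1 the Jag1, Hey1 and Hey2 points of GMT and NGMT lie below all 0F points, in set 2 the Hey1 points of DMT (7.20 to 7.57) lie above all others, and Dll1 stays under the dotted line throughout.

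The comparison of GMT with 0F asks how cells carrying the basic factor mixture and its selection differed from untreated fibroblasts. Jag1 and the targets Hey1, Hey2 and Heyl fell, Hes1 rose, and none of the 4 receptors was called. Thus 5 of the 9 tested genes were called, 4 lower and 1 higher, where 56.5% of all tested genes were called. The median difference was -0.25 over the 9 genes and 0.05 over all 12211.

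Jag1, which encodes a membrane-bound ligand of Notch receptors, had signals of 8.47 and 8.45 in GMT, against 9.41, 9.51 and 9.30 in 0F. The groups did not overlap, and the spread inside each was small beside the gap. Jag1 was lower in GMT by a log2 difference of -0.95 ± 0.15, or 0.52-fold (95% interval -1.26 to -0.63, adjusted p = 9.15e-06). In bulk RNA, fewer cells that express a gene and less RNA per cell cannot be told apart, here and in every result that follows.

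Hey2, a repressor of the HEY family, had signals of 5.49 and 5.62 in GMT, against 6.43, 6.44 and 6.53 in 0F. Every GMT value lay below every 0F value, and both groups lay below the array median. Its difference was -0.91 ± 0.11 (adjusted p = 2.26e-07). Hey1, its relative, had 5.82 and 5.84 in GMT, against 6.42, 6.45 and 6.50 in 0F. Again the groups were apart and both were below the median, with a difference of -0.63 ± 0.08 (adjusted p = 8.56e-07). Heyl, the third member of the family, had 6.61 and 6.60 in GMT, against 6.92, 6.76 and 6.93 in 0F. It fell by less, with a difference of -0.26 ± 0.08 (adjusted p = 0.0106), and without GMT replicate 2 the call was lost (adjusted p = 0.0624).

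Hes1, a repressor that many signals besides Notch can induce, moved the other way. Its signals were 8.41 and 8.64 in GMT, against 8.08, 8.16 and 8.36 in 0F, with the lowest GMT array close above the highest 0F array. The difference was 0.33 ± 0.11 (adjusted p = 0.0134). It was no longer called without GMT replicate 2 (adjusted p = 0.22) or without 0F replicate 1 (adjusted p = 0.064).

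Among the receptors, Notch1 had 8.20 and 8.10 in GMT, against 8.47, 8.47 and 8.26 in 0F, and did not pass the test (-0.25 ± 0.13, adjusted p = 0.102). The call depended on HNGMT replicate 1, which enters through the shared estimate of spread: without it the same difference had an adjusted p of 0.000812. Notch2 had 9.77 and 9.72 in GMT, against 9.74, 9.75 and 9.70 in 0F. The 2 groups overlapped, and the 95% interval of the difference ran from -0.26 to 0.29. Notch3 averaged 7.83 ± 0.03 in GMT (SD, n = 2) and 7.70 ± 0.11 in 0F (SD, n = 3), with adjusted p = 0.287. Notch4, which is best known from endothelium, averaged 6.61 ± 0.06 in GMT and 6.70 ± 0.03 in 0F (SD, same n), also with adjusted p = 0.287.

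Markers of other cells also differed between GMT and 0F, and their part in the Notch results was not tested. All 8 tested adipocyte markers fell, and their summed level was 10.35 to 10.53 log2 in GMT, against 14.90 to 14.95 in 0F. Of 8 tested macrophage markers 7 fell and 1 rose, with a summed level of 10.30 to 10.48 in GMT, against 12.33 to 12.79 in 0F. Of 8 tested endothelial markers 1 rose and 2 fell, with sums of 10.28 to 10.30 in GMT and 10.78 to 10.82 in 0F. The endothelial markers Pecam1, Kdr, Tie1, Emcn, Sox17 and Robo4 were below the median on all 28 arrays. Notch3 and Heyl, also known as mural markers, were left out of the mural list because they are among the 10 genes. Of 5 tested mural markers 1 rose and 2 fell, and of 8 smooth muscle markers 5 rose and 1 fell. Of 10 fibroblast markers 8 fell and 2 rose. Of 11 tested cardiomyocyte markers 9 rose, and of 6 tested epithelial and mesothelial markers 5 rose.

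NGMT, which adds NKX2.5 to the GMT mixture, was compared with the same 0F arrays, so its differences are not independent of those of GMT. Here 6 of the 9 genes were called, 5 lower and 1 higher, where 58.2% of all tested genes were called. The median difference was -0.15 over the 9 genes and 0.04 over all tested genes. Jag1 had 8.21, 8.33 and 8.26 in NGMT, against 9.41, 9.51 and 9.30 in 0F, and every NGMT value was below every 0F value (-1.14 ± 0.13, adjusted p = 1.02e-07). Hey2 had 5.57, 5.67 and 5.50 in NGMT, against 6.43, 6.44 and 6.53 in 0F, a difference of -0.89 ± 0.10 (adjusted p = 5.93e-08). Hey1 had 5.64, 5.78 and 5.86 in NGMT, against 6.42, 6.45 and 6.50 in 0F, a difference of -0.69 ± 0.08 (adjusted p = 2.82e-08). None of these 3 genes had overlapping groups, though the share of all genes without overlap was not computed.

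Heyl had 6.54, 6.57 and 6.57 in NGMT and fell by 0.31 ± 0.08 on the log2 scale against 0F (adjusted p = 0.00129). Hes1 had 8.41, 8.54 and 8.58 in NGMT, all above the 0F arrays, and rose by 0.31 ± 0.10 (adjusted p = 0.0091). Notch4 had 6.65, 6.41 and 6.61 in NGMT, against 6.67, 6.73 and 6.71 in 0F. Its call at an adjusted p of 0.048 was marginal, with a difference of -0.15 ± 0.06, and it was lost in 8 of 13 alternative settings. Notch3 had 8.07, 7.83 and 7.81 in NGMT, against 7.78, 7.57 and 7.74 in 0F, all higher but not called (0.21 ± 0.09, adjusted p = 0.0587). It was called without HNGMT replicate 1 (adjusted p = 0.0158). Notch1 and Notch2 had overlapping groups, with differences of 0.00 ± 0.11 and -0.03 ± 0.12. In this comparison too all 8 tested adipocyte markers and 7 of 8 macrophage markers fell.

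**Figure D2:**
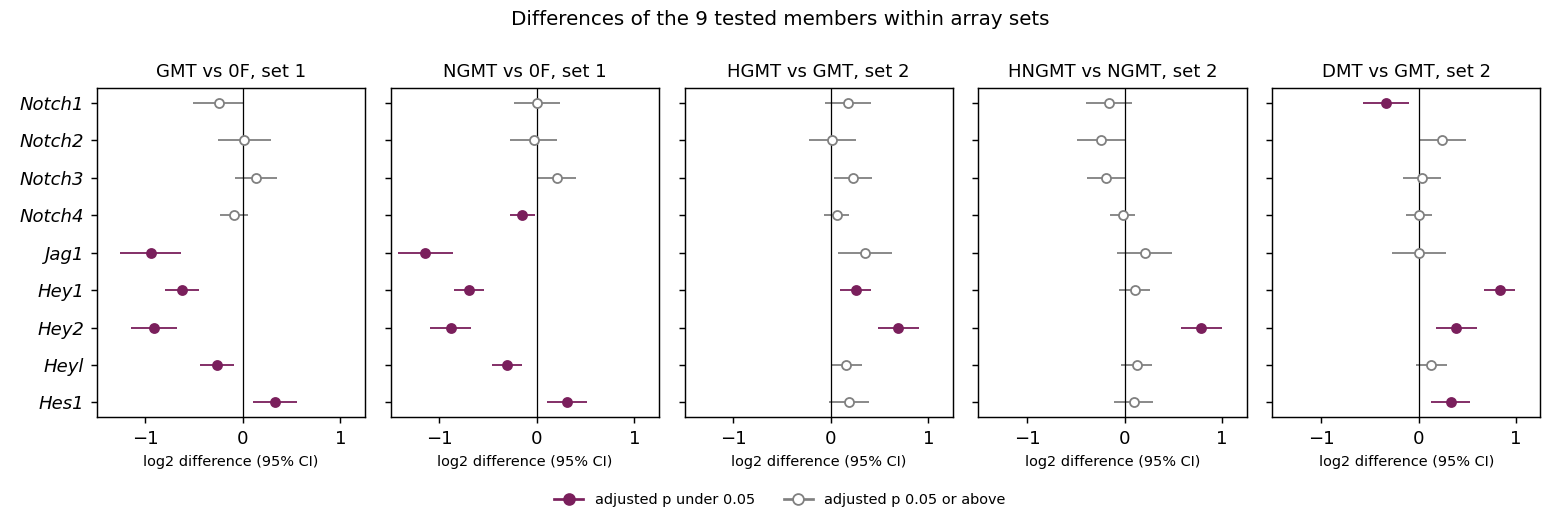
Log2 difference of each tested Notch gene in 5 of the comparisons made inside an array set, with 95% intervals from limma and filled points where the adjusted p was under 0.05. The Jag1, Hey1 and Hey2 intervals for GMT and NGMT against 0F lie entirely below 0, Hey2 lies above 0 in both comparisons that add Hand2, and Hey1 lies furthest above 0 in DMT against GMT (0.83).

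Adding NKX2.5 was tested in 3 backgrounds, and limma called none of the 9 genes in any of them. In NGMT against GMT in set 1, 4.7% of all genes were called, 0 of the 9 Notch genes had an unadjusted p under 0.05, and the widest difference was 0.25 ± 0.13 for Notch1 (adjusted p = 0.421). Notch1 was 8.45, 8.38 and 8.38 in NGMT, against 8.20 and 8.10 in GMT. These do not overlap, and without HNGMT replicate 1 in the shared spread the adjusted p was 0.00804. In set 2, where NGMT and GMT were measured again on other cultures, 0.0328% of all genes were called and again 0 of the 9 had an unadjusted p under 0.05. There Notch1 was 9.70, 9.60 and 9.61 in NGMT, against 9.62, 9.70 and 9.63 in GMT, which overlap. The Notch1 difference between NGMT and GMT in set 2 minus that in set 1 was -0.27 ± 0.17 (adjusted p = 0.985). For that contrast between sets 0.639% of all genes and 0 of the 9 were called, and 0 of the 9 had an unadjusted p under 0.05.

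In HNGMT against HGMT, 0.491% of all genes and 0 of the 9 were called, while 4 of the 9 (Notch1, Notch2, Notch3 and Jag1) had an unadjusted p under 0.05, all lower in HNGMT. Of all 12211 tested genes, 3098 had an unadjusted p under 0.05, and 45 of the 60 called genes were lower in HNGMT. Notch1 was 8.996, 9.70 and 9.71 in HNGMT, against 9.80, 9.80 and 9.89 in HGMT (-0.36 ± 0.11, adjusted p = 0.087). The first HNGMT array, replicate 1, made most of that gap, and without it the difference was -0.12 ± 0.06 (adjusted p = 0.613). Notch3 was 8.79, 9.24 and 9.14 in HNGMT, against 9.47, 9.32 and 9.29 in HGMT (-0.31 ± 0.09, adjusted p = 0.082). Without replicate 1 it was -0.17 ± 0.08 (adjusted p = 0.613). In DMNT against DMT, which rests on 1 DMT array and its assumed spread, 0.0655% of all genes and 0 of the 9 were called, and 0 of the 9 had an unadjusted p under 0.05. All 9 differences lay between -0.14 for Hey2 and 0.05 for Notch3, with 95% intervals as wide as -0.49 to 0.27 for Jag1. The effect of NKX2.5 in DMT of set 3 minus that in GMT of set 2 was called for 0.00819% of all genes and for 0 of the 9, and 0 of the 9 had an unadjusted p under 0.05.

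Adding Hand2, a transcription factor of the heart and its outflow tract, went with higher Hey2 in both backgrounds. In HGMT against GMT, 2 of the 9 genes were called, both higher, where 23.9% of all genes were called. The median difference was 0.19 over the 9 genes and -0.01 over all tested genes. Hey2 had signals of 6.94, 6.68 and 6.98 in HGMT, against 6.03, 6.12 and 6.38 in GMT. The groups did not overlap, with the GMT arrays all below the median and the HGMT arrays near it, and the difference was 0.69 ± 0.10, or 1.61-fold (95% interval 0.48 to 0.90, adjusted p = 1.58e-05). Hey1 had 6.81, 6.72 and 6.83 in HGMT, against 6.54, 6.50 and 6.55 in GMT. These were apart as well, by 0.26 ± 0.08 (adjusted p = 0.0156), although the adjusted p passed 0.05 in 3 of 13 alternative settings and both groups lay below the median.

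Jag1 had 9.02, 8.94 and 9.01 in HGMT, against 8.57, 8.41 and 8.93 in GMT. Each HGMT array was above each GMT array, the third GMT array (replicate 5) only just, and the gene was not called (0.35 ± 0.13, adjusted p = 0.0619). Notch3 had 9.47, 9.32 and 9.29 in HGMT, against 9.16, 9.24 and 9.001 in GMT (0.23 ± 0.09, adjusted p = 0.0831). Notch1 had 9.80, 9.80 and 9.89 in HGMT, against 9.62, 9.70 and 9.63 in GMT (0.18 ± 0.11, adjusted p = 0.285). None of these 3 genes had overlapping groups, though the share of all genes without overlap was not computed. Notch1 and Notch3 were each called in 1 of 13 alternative settings, and Jag1 in 4. HNGMT replicate 1 enters the shared spread: without it the SE for Notch1 was 0.05. Without it 5 genes were called: Jag1 (adjusted p = 0.00378), Notch1 (0.0109), Notch3 (0.0201), Hey1 (0.00518) and Hey2 (1.02e-06), where 33.5% of all genes were called. Notch2, Notch4, Heyl and Hes1 had overlapping groups and differences of 0.02, 0.06, 0.16 and 0.19.

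In HNGMT against NGMT, 1 of the 9 genes, Hey2, was called, where 28.5% of all genes were called. Hey2 had 7.11, 6.58 and 6.80 in HNGMT, against 6.03, 6.01 and 6.09 in NGMT, and every HNGMT array was higher (0.79 ± 0.10, or 1.72-fold, adjusted p = 3.8e-06). HNGMT replicate 1 was the highest of them, and without it the difference was 0.65 ± 0.09 (adjusted p = 2.03e-05). Jag1 had 8.17, 8.96 and 8.81 in HNGMT, against 8.58, 8.36 and 8.39 in NGMT. Replicate 1 lay below all NGMT arrays and the other 2 above them, so the difference was 0.20 ± 0.13 with it (adjusted p = 0.272) and 0.44 ± 0.10 without it (adjusted p = 0.00208). The summed macrophage markers were 11.79, 11.45 and 10.29 log2 in HNGMT, highest in replicate 1, against 10.24 to 10.85 in NGMT, with 4 of 8 tested macrophage markers higher, and their part in these values was not tested.

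The effect of Hand2 with NKX2.5 minus its effect without was called for 0% of all genes by limma, and 1157 genes had an unadjusted p under 0.05. None of the 9 was called, and 2 of them, Notch1 and Notch3, had an unadjusted p under 0.05. Hey2 differed by 0.09 ± 0.14 between the 2 backgrounds (95% interval -0.20 to 0.39, adjusted p = 0.813). Notch3 differed by -0.42 ± 0.13 (adjusted p = 0.507), and by -0.29 ± 0.11 without HNGMT replicate 1 (adjusted p = 0.769).

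Some endothelial markers and most adipocyte markers rose with Hey2 in both Hand2 comparisons, and their part in the Hey2 result was not tested. In HGMT against GMT, Cdh5, Tek, Flt1 and Ramp2 rose and Erg fell among 8 tested endothelial markers, with a summed level of 11.07 to 11.10 in HGMT, against 10.57 to 10.73 in GMT. In HNGMT against NGMT the same 4 rose and Erg fell, with sums of 10.76 to 11.05 in HNGMT, against 10.58 to 10.66 in NGMT. Cdh5, which encodes an endothelial cadherin, was above the array median on 3 of 28 arrays. The endothelial markers Pecam1, Kdr, Tie1, Emcn, Sox17 and Robo4 were below it on all 28 and were not tested. All 8 tested adipocyte markers rose in HGMT against GMT, to a sum of 12.92 to 13.25 in HGMT, against 11.56 to 12.04 in GMT, and 5 of the 8 rose in HNGMT against NGMT. Of 5 tested mural markers, Mcam fell in both. Of 11 tested cardiomyocyte markers, 2 rose and 5 fell in HGMT against GMT, and 2 rose and 4 fell in HNGMT against NGMT. Of 6 tested epithelial and mesothelial markers, 3 rose and 1 fell in HGMT, and 3 rose and 2 fell in HNGMT. Of 8 smooth muscle markers, 1 rose and 3 fell in HGMT, and 2 rose and 3 fell in HNGMT. Of 10 fibroblast markers, 2 rose in HGMT, and 2 rose and 1 fell in HNGMT. In HGMT against GMT, 2 of 8 macrophage markers fell. The part of these markers was not tested either.

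DMT, which has MYOCD in place of GATA4, was set against GMT in set 2 and shares those GMT arrays with the HGMT comparison. Of the 9 genes 4 were called, with Hey1, Hey2 and Hes1 higher and Notch1 lower, where 17.3% of all genes were called. The median difference was 0.13 over the 9 genes and 0.01 over all tested genes. Hey1 had 7.32, 7.20 and 7.57 in DMT, against 6.54, 6.50 and 6.55 in GMT. It rose by 0.83 ± 0.08, or 1.78-fold (95% interval 0.67 to 0.99, adjusted p = 1.24e-08). Hey1 lay above the array median on all DMT arrays and on no GMT array. Its place above the median on DMT and DMNT arrays is also what brought it through the filter, so it is not separate support. Hey2 had 6.58, 6.50 and 6.61 in DMT, against 6.03, 6.12 and 6.38 in GMT, all below the median and without overlap (0.39 ± 0.10, adjusted p = 0.00791).

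Hes1 had 8.86, 8.85 and 8.99 in DMT, against 8.44, 8.41 and 8.86 in GMT, where GMT replicate 5 reached the DMT range. It rose by 0.33 ± 0.10 (adjusted p = 0.0195), a call kept in 9 of 13 alternative settings. Notch1 had 9.40, 9.21 and 9.33 in DMT, against 9.62, 9.70 and 9.63 in GMT. All DMT arrays were lower, by -0.33 ± 0.11 (adjusted p = 0.0452). This call was marginal and was kept in only 3 of 13 alternative settings, with limma's adjusted p reaching 0.261. Among the settings that kept it was the fit without HNGMT replicate 1 (adjusted p = 3.9e-05). Notch2 had 10.28, 10.33 and 10.27 in DMT, against 9.91, 10.06 and 10.20 in GMT, apart from each other but not called (0.24 ± 0.12, adjusted p = 0.192). It too was called without that array (adjusted p = 0.00219). Notch3, Notch4, Jag1 and Heyl had overlapping groups and differences of 0.03, 0.00, 0.01 and 0.13.

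Smooth muscle and mural markers rose in the same comparison, and their part in the Hey1 result was not tested. Of 8 smooth muscle markers 7 rose, Myh11 by 4.49 ± 0.08 and Cnn1 by 4.68 ± 0.10 among them, and Myocd, itself on the list, is a delivered factor. Their summed level was 14.22 to 14.40 in DMT, against 12.56 to 12.59 in GMT. Of 5 tested mural markers, Notch3 and Heyl left aside, 3 rose, with sums of 12.24 to 12.35 in DMT, against 11.60 to 11.98 in GMT. Of 8 tested endothelial markers 1 rose and 3 fell. Of 11 tested cardiomyocyte markers 5 rose and 4 fell, and 5 of 8 adipocyte markers fell. Of 6 epithelial and mesothelial markers 1 rose and 3 fell, of 10 fibroblast markers 1 rose and 2 fell, and 1 of 8 macrophage markers fell. The part of these lists was not tested either.

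No 0F array was measured in sets 2 or 3, so HGMT, HNGMT, DMT and DMNT were linked to 0F by way of GMT and NGMT, which sets 1 and 2 both hold, and DMNT by the single DMT array of set 3 as well. These comparisons assume that a set shifts a gene equally in all groups, and all 4 share the 0F arrays. In HGMT against 0F, 4 of the 9 genes were called, where 51.1% of all genes were called: Jag1 (-0.60 ± 0.17, adjusted p = 0.00391) and Hey1 (-0.44 ± 0.10, adjusted p = 0.000359) were lower, and Notch3 (0.34 ± 0.11, adjusted p = 0.0151) and Hes1 (0.47 ± 0.12, adjusted p = 0.00176) higher. In HNGMT against 0F, 3 of the 9 were called, where 49.7% of all genes were called: Jag1 (-0.94 ± 0.17) and Hey1 (-0.53 ± 0.10) lower, and Hes1 (0.43 ± 0.12) higher. In DMT against 0F, 4 of the 9 were called, where 56.4% of all genes were called: Notch1 (-0.43 ± 0.15), Jag1 (-0.94 ± 0.17) and Hey2 (-0.44 ± 0.13) lower, and Hes1 (0.62 ± 0.12) higher. In DMNT against 0F, 3 of the 9 were called, where 41.4% of all genes were called: Jag1 (-1.05 ± 0.25) and Hey2 (-0.58 ± 0.19) lower, and Hes1 (0.50 ± 0.18) higher. Jag1 was lower and Hes1 higher in all 4. Hey1 in DMT had a linked difference of 0.13 ± 0.10 from 0F (adjusted p = 0.262). With quantile normalization in place of the set term, Hey2 and Notch4 changed sign in all 4 comparisons, Notch1 in HNGMT, DMT and DMNT, and Hey1 in HGMT and HNGMT. Sizes moved as well: Hey1 in DMT was then 0.82 above 0F (adjusted p = 0.000439), and Notch3 in HGMT 1.43 above it (adjusted p = 0.0008).

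The size of the shift between sets, though not whether it was equal in all groups, can be read from GMT and NGMT, which were measured in both. The NGMT minus GMT difference between sets 1 and 2 was called for 0 of the 9 genes and for 0.639% of all genes. It covers only GMT and NGMT, so it cannot show whether the shift was equal in 0F or in the other groups. After quantile normalization, Notch1 was 1.19 ± 0.09 higher on the set 2 arrays than on those of set 1 (adjusted p = 2.92e-11), and Notch3 1.14 ± 0.07 higher (adjusted p = 1.45e-12). Hey1 was 0.61 ± 0.06 higher (adjusted p = 3.07e-09) and Hey2 0.41 ± 0.08 (adjusted p = 6.57e-05). Notch4 was 0.19 ± 0.05 higher (adjusted p = 0.00111), and Notch2 differed by 0.18 ± 0.09 (adjusted p = 0.0729). Jag1 differed by 0.01 ± 0.10 (adjusted p = 0.898), Hes1 by -0.08 ± 0.07 (adjusted p = 0.318) and Heyl by -0.12 ± 0.06 (adjusted p = 0.085). Of all 12211 tested genes, 8491 differed between the sets and 484 of all tested genes differed by at least 1 log2 unit. Cultures and array processing cannot be told apart in these differences, and no level is therefore ordered across sets.

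**Figure D3:**
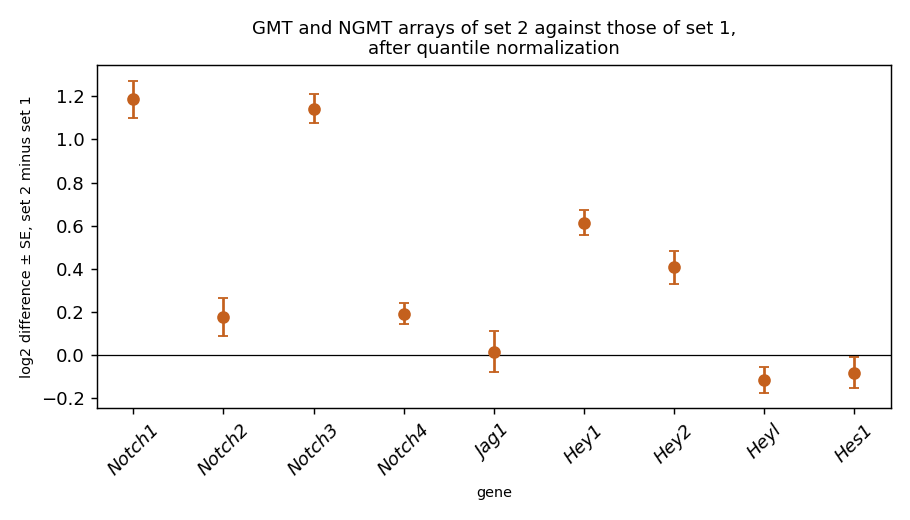
Log2 difference (± SE) of each tested Notch gene between the GMT and NGMT arrays of set 2 and those of set 1, after quantile normalization. Notch1 and Notch3 lie near 1.2, Hey1 and Hey2 between 0.4 and 0.62, and Jag1 at 0.01.

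Within set 2, where 5 factor groups were measured side by side, the order of Hey1 by mean was DMT (7.36 ± 0.19, SD, n = 3), HGMT (6.79 ± 0.06), HNGMT (6.70 ± 0.15), NGMT (6.60 ± 0.03) and GMT (6.53 ± 0.02). DMT lay clear of HGMT, HGMT overlapped HNGMT and HNGMT overlapped NGMT, and the narrow gap between NGMT and GMT was not called. For Hey2 the order was HGMT (6.87 ± 0.17), HNGMT (6.83 ± 0.26), DMT (6.56 ± 0.05), GMT (6.18 ± 0.18) and NGMT (6.04 ± 0.04). HGMT and HNGMT overlap, as do HNGMT and DMT, and GMT and NGMT, while all DMT arrays lay above all GMT arrays. For Jag1 the order was HGMT (8.99 ± 0.04), HNGMT (8.65 ± 0.42), DMT (8.64 ± 0.10), GMT (8.64 ± 0.27) and NGMT (8.44 ± 0.12). Each neighbouring pair in that order overlaps. For Notch1 it was HGMT (9.83 ± 0.05), GMT (9.65 ± 0.04), NGMT (9.63 ± 0.06), HNGMT (9.47 ± 0.41) and DMT (9.32 ± 0.09), with HGMT above all arrays of the other groups and overlap in every later neighbouring pair.

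Jag1 was the only one of the 10 genes whose group means spanned at least 1 log2 unit inside a set (1.14 in set 1). The genes with the most similar profile, by root mean square difference of set-centred values over 28 arrays, were Ldlrad3 (0.115 log2), Olfm2 (0.133) and Jcad (0.139), against 0.340 for the Jag1 profile itself.

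The rest of the pathway was read from a list of 67 other genes, of which 64 were used here and 57 passed the filter. In GMT against 0F, 32 of the 57 were called (21 higher, 11 lower), which is 56.1% beside 56.5% of all genes. In NGMT against 0F, 34 were called (21 higher, 13 lower), or 59.6% beside 58.2%. Both shares are near those of all genes.

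Among other ligands and related proteins, Dlk1, a Delta-like protein that lacks the domain by which classical ligands bind Notch and that is abundant in embryonic fibroblasts and preadipocytes, had the widest difference. It had 7.32 and 7.33 in GMT, against 10.94, 10.82 and 11.03 in 0F (-3.60 ± 0.20, adjusted p = 1.86e-13). It was 9.24, 9.56 and 9.71 in HGMT, against 8.52, 8.71 and 7.98 in GMT of set 2, each HGMT array above each GMT array (1.10 ± 0.18, adjusted p = 6.48e-05). Dlk1 was also higher in HNGMT than in NGMT (0.85 ± 0.18, adjusted p = 0.00112) and lower in DMT than in GMT (-0.60 ± 0.18, adjusted p = 0.0213). DMT had 7.68, 7.62 and 8.12, which overlap the GMT arrays of set 2.

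Of 5 receptor glycosylation genes 2 fell in GMT against 0F, the Fringe enzymes Mfng and Lfng, which add N-acetylglucosamine to O-fucose on the receptors and so alter their choice of ligand. Mfng had 6.22 and 6.25 in GMT, against 7.82, 7.85 and 7.92 in 0F (-1.63 ± 0.06, adjusted p = 5.78e-17). Lfng had 5.87 and 5.65 in GMT, against 7.01, 7.27 and 7.42 in 0F (-1.48 ± 0.10, adjusted p = 4.53e-12). For both enzymes the GMT arrays lay below the array median and the 0F arrays above it, and in NGMT they were lower than 0F by -1.80 ± 0.05 and -1.45 ± 0.09.

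Of 9 tested genes for receptor cleavage, 4 rose and 1 fell in GMT against 0F. Adam10, which makes the first cut after ligand binding, rose by 0.85 ± 0.06, and Psen2, a catalytic subunit of gamma-secretase, rose by 0.78 ± 0.05. Psen2 was lower in NGMT than in GMT in set 1, with 8.97, 8.98 and 9.02 in NGMT, against 9.37 and 9.48 in GMT (-0.43 ± 0.05, adjusted p = 1.86e-05), but not in set 2, and that difference between sets was called (0.37 ± 0.07, adjusted p = 0.0139). Adam10 (-0.26 ± 0.06), Maml3 (-0.33 ± 0.09) and Tle4 (-0.30 ± 0.08) were the other 3 of 57 called in NGMT against GMT of set 1, all lower. With Psen2 these are 7.0% of the list, beside 4.7% of all genes.

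Of 18 tested genes of the nuclear complex and its corepressors, 9 rose and 4 fell in GMT against 0F. The Mastermind coactivators went opposite ways, Maml3 up by 1.20 ± 0.09 and Maml2 lower by -1.07 ± 0.11. In HGMT against GMT, Maml2 had 9.97, 9.99 and 10.06 in HGMT, against 9.08, 9.42 and 9.53 in GMT (0.66 ± 0.10, adjusted p = 1.96e-05). Rbpj itself was called in NGMT against 0F (0.20 ± 0.06, adjusted p = 0.00587) and in HNGMT against NGMT (-0.19 ± 0.06, adjusted p = 0.023).

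Of 17 tested genes of trafficking and turnover, 6 rose and 3 fell in GMT against 0F. Fbxw7, the ubiquitin ligase subunit that marks the Notch intracellular domain for degradation, rose there by 0.75 ± 0.07. It had 9.04, 9.06 and 8.96 in HNGMT, against 8.40, 8.43 and 8.41 in NGMT (0.60 ± 0.06, adjusted p = 5.2e-08). Every HNGMT array was higher, replicate 1 included, and HGMT exceeded GMT by 0.57 ± 0.06 (adjusted p = 8.1e-08). The Deltex genes Dtx4 and Dtx3l were lower in DMT than in GMT, by -0.50 ± 0.13 and -0.50 ± 0.09. For Dtx4, GMT replicate 5 lay well above the other GMT arrays of set 2, at 8.26 against 7.65 and 7.64.

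Among 5 tested other HES genes and targets, Bhlhe40 (0.76 ± 0.15) and Hes6 (0.58 ± 0.07) rose in GMT against 0F. Bhlhe41, a repressor related to the HES family, had 6.67, 6.82 and 6.76 in DMT, against 7.50, 7.45 and 8.30 in GMT (-1.00 ± 0.15, adjusted p = 2.07e-05). GMT replicate 5 lay well above the other GMT arrays, and all DMT arrays were below the median. Over the whole list, 13 of 57 were called in HGMT against GMT (7 higher, 6 lower), 13 in HNGMT against NGMT (5 higher, 8 lower) and 7 in DMT against GMT (2 higher, 5 lower). These are 22.8%, 22.8% and 12.3% of the list, beside 23.9%, 28.5% and 17.3% of all genes. limma called 0 of 57 in NGMT against GMT of set 2 and in HNGMT against HGMT, where 2 and 22 of them had an unadjusted p under 0.05. Of all 12211 tested genes, 367 and 3098 had one.

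**Figure D4:**
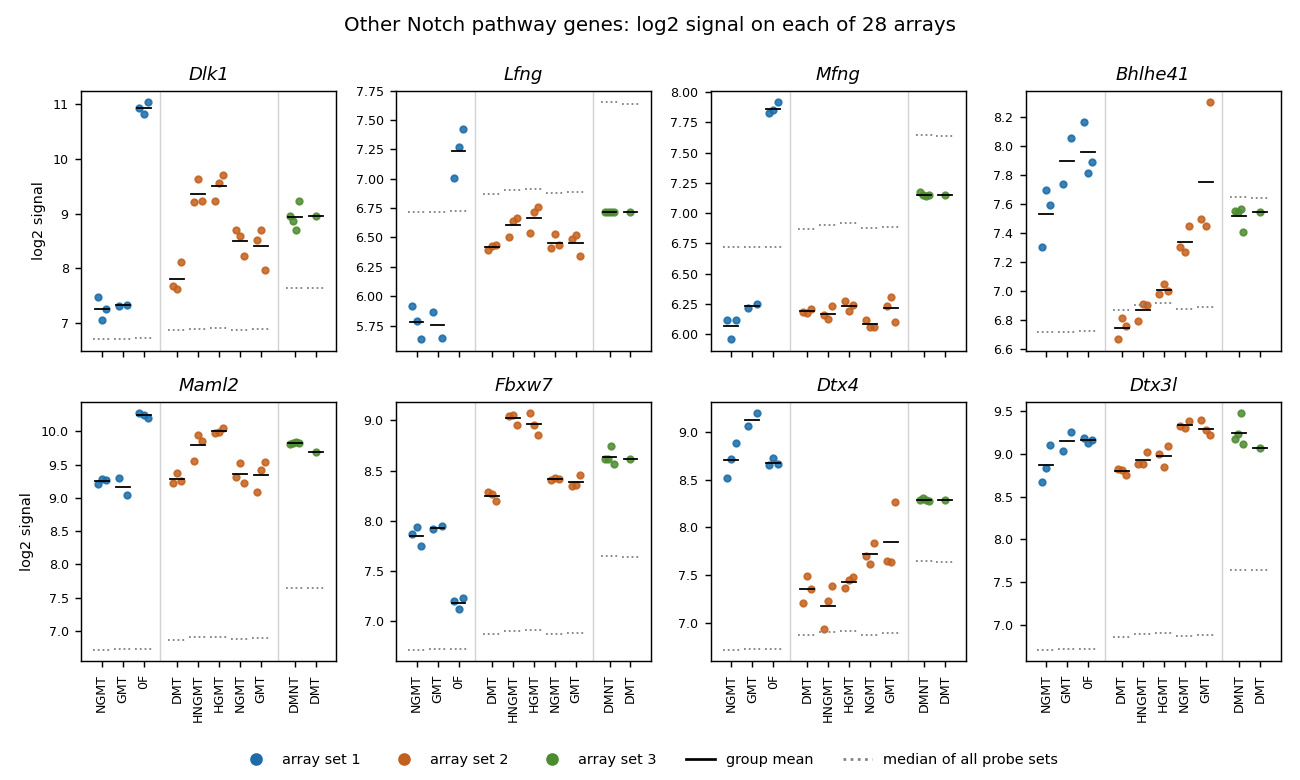
Log2 signal of 8 other Notch pathway genes (panels) on each of 28 arrays (points), by group along the horizontal axis and coloured by array set, with group means as black lines and the median of all probe sets as dotted lines. Within set 1, Dlk1, Mfng and Lfng are highest on the 3 arrays of 0F, and Fbxw7 and Maml2 are higher in HNGMT and HGMT than in NGMT and GMT of set 2.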

How the data were processed

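Total RNA from 28 cultures was biotin-labelled and hybridized to single-channel mouse arrays, per the labels' protocols. The authors deposited 1 matrix of 35556 probe sets by 28 arrays of log2 signal, and all columns were used. MAS5 is the only tool named, per the submitters' processing notes. Its version, summarization and scaling were not given in the sources used here. A table from GEO's platform annotation pairs 21789 probe sets with 1 symbol, 1621 with several and 12146 with none, and a gene with several probe sets was represented by the one of highest mean. Names were checked through Entrez IDs against RefSeq GRCm38.p6.

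Array sets were found by the distance between sorted array values, since the labels name none. Set 1 coincides with the samples whose descriptions carry MEF numbers. The plan allowed for unlogged signal, but the values were already log2 and were used so.

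Genes above the array median on at least 3 arrays were tested in limma 3.58.1 (R 4.3.3) with eBayes and trend. A single fit gave each group in each set a mean (10 means, 18 residual degrees of freedom), and a fit additive in group and set (19) gave the linked comparisons. Tests were two-sided, with Benjamini-Hochberg adjustment over genes in each of 9 comparisons within sets, 3 interactions and 4 linked comparisons. The number of arrays limits the precision. The fit was also tested on simulated data.

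The 10 genes, the pathway list and the marker lists were chosen with earlier results of these data known. Of 157 list entries, 153 were used here. Other pathway genes were named by a rule that took up to 3 called genes of largest difference per comparison, and further called genes were named after their values were seen. Alternatives were another fit, fewer arrays, quantile normalization, no filter, averaged probe sets, a replicate block and leaving out each array.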

Additional observations from a re-analysis of the deposited data

Results flagged for a closer look

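Values of single arrays far from the others of their group were sought in 40 combinations of gene and group of 4 to 10 arrays, by Dixon's criterion, which chance passes in about 1 in 20 groups. It was passed 3 times, each in DMNT, where many values are identical between arrays. Notch1 was 9.8302 in DMNT replicate 1, against 9.8437 on the other 3 arrays. Jag1 was 9.1803 in DMNT replicate 1, against 9.2242 to 9.2258 on the others. Hey2 was 7.7046 in DMNT replicate 2, against 7.8235 on the others. Among the 5 arrays of set 3, Notch4 had 2 distinct values and Notch1 had 2. None of the 9 tested Notch genes was called by limma in the 3 contrasts that compare an effect between sets or backgrounds. Among other genes of the pathway, the NGMT against GMT difference of Psen2 was called as different between sets 1 and 2 (0.37 ± 0.07, adjusted p = 0.0139).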

How the results depend on the processing

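Across the alternatives, the 32 called values of the Notch genes were recomputed 382 times: 339 kept direction and call, 38 lost the call and 5 changed direction. The 112 uncalled values were recomputed 1481 times, of which 50 were newly called with the same direction and 1 with the opposite one. A change of direction is counted there only where the value was called in the main fit or in the alternative. The sign also changed 107 times where neither was called. Jag1, Hey1 and Hey2 against 0F in set 1, Hey1 in DMT against GMT, and Hey2 in HGMT against GMT and in HNGMT against NGMT kept their calls in every alternative run. Causes of the other changes were not tested.

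The number of Notch genes called changed by over 1.5 times as follows. With only the arrays of the compared sets it was 1 for HGMT against GMT (2 in the main fit) and 2 for DMT against GMT (4). This takes the arrays of sets 1 and 3 out of the shared spread, and the part of each set was not tested. With quantile normalization and no set term it was 5 for HNGMT against 0F (3) and 6 for DMNT against 0F (3). The 6 values that changed direction with a call in the main fit or in the alternative all came from that setting: Hey1 in HGMT (0.154, adjusted p = 0.513) and HNGMT (0.0749, adjusted p = 0.765), Notch1 in HNGMT (0.87, adjusted p = 0.0369) and DMT (0.70, adjusted p = 0.0641), and Hey2 in DMT (0.12, adjusted p = 0.541) and DMNT (0.42, adjusted p = 0.0304), each against 0F.

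Whether replicate numbers pair the arrays could not be decided, since deviations from the mean of so few arrays are tied to each other. By the numbers in the titles, correlations of deviations between same-numbered arrays ran from -0.138 to 0.408 in 7 pairs of set 1. In 14 pairs of set 2 they ran from -0.257 to 0.300. By the numbers in the sample descriptions they ran from -0.257 to 0.367 in 30 pairs of set 2. In set 1 the description numbers run on across groups, and no pairs were formed by them. With a replicate block the number called was 2 for HNGMT against NGMT (1), 2 for HGMT against 0F (4) and 2 for DMT against 0F (4).

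Leaving out 1 array at a time gave 3 to 6 Notch genes called for GMT against 0F (lowest without GMT replicate 2), 0 to 1 for NGMT against GMT in set 1, 1 to 5 for HGMT against GMT (highest without HNGMT replicate 1, lowest without GMT replicate 4 or HGMT replicate 3, and 4 without GMT replicate 5), 1 to 3 for HNGMT against NGMT (3 without HNGMT replicate 2), 0 to 4 for HNGMT against HGMT (4 without HNGMT replicate 2 or 3), 1 to 5 for DMT against GMT (1 without GMT replicate 3, 2 without GMT replicate 4 or DMT replicate 3), 3 to 6 for HNGMT against 0F and 2 to 5 for DMNT against 0F. The count over all 12211 tested genes moved as well in HNGMT against HGMT. It was 60 in the main fit, 2343 without HNGMT replicate 2 and 3058 without HNGMT replicate 3. Leaving HNGMT replicate 1 out of comparisons that do not use it was chosen after seeing the data.

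Over all genes, the number called in NGMT against GMT of set 1 was 574, and 199 in the additive fit. In set 2 it was 4, and 199, 1 and 12 in the additive fit, with the compared sets only and without the filter. For HNGMT against NGMT it was 3486, and 2145 with the compared sets only and 1056 with the block. For HNGMT against HGMT it was 60, and 1, 34, 36 and 2 with the compared sets only, quantile normalization, no filter and the block, and 3058 without HNGMT replicate 3. For DMNT against DMT it was 8, and 615 with the compared sets only and 0 with the block. For the difference of NGMT against GMT between sets it was 78, and 35 with the compared sets only and 43 with the block. The other 2 interactions gave 0 and 1 genes, and 1 and 2 without the filter. DMNT against 0F gave 5060, and 7787 with quantile normalization and no set term. DMT replicate 4 could not be left out of comparisons that need it, since no other DMT array is in set 3.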
